A study of Canis lupus familiaris with 29 samples.

Results

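The genes described here belong to blood vessel and lymphatic endothelium and to the signals that make vessels grow, and they were chosen by name from a list of 41 genes. The list was drawn up with earlier results of these data known. Of these, 40 were found by gene name among the 30951 genes of the count table, and the apelin ligand APLN was not found by name and is not analysed here. All 40 passed the filter on low counts in each of the 2 comparisons. Their level was read from RNA sequencing of 29 canine samples, namely 10 normal adrenal medullas (NAMs) of healthy dogs kept for research and 19 pheochromocytomas and paragangliomas (PPGLs), tumors of chromaffin cells, from client-owned dogs of several clinics. The tumors comprised 7 samples of PPGL group 1 and 12 of PPGL group 2, which the study had separated by a principal component analysis of these same samples. Age, sex and breed were not used here. Since every NAM came from a research dog and every PPGL from a patient, origin and tissue cannot be told apart, and no library batch was named in the sources used here. Sequencing depth, as the sum of a sample's counts, ran from 19258054 to 35918182 for the NAMs and from 18208718 to 31919833 for the PPGLs. A floor of 3 counts, which covers counting error only, equals 0.0835 to 0.156 CPM (the count scaled to a depth shared by the samples) in the former and 0.0940 to 0.165 CPM in the latter, by these raw sums and before the TMM scaling of the levels below.

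Endothelial cells line blood and lymph vessels and are joined by adhesion molecules such as PECAM1 and VE-cadherin. Vascular endothelial growth factors (VEGFs) bind receptor tyrosine kinases on these cells, angiopoietins act on the TIE2 receptor to stabilize or loosen vessels, and Notch signaling between neighboring endothelial cells separates the leading tip cells of a sprout from the stalk cells behind them. The adrenal gland is densely supplied by fenestrated sinusoids, and chromaffin tumors are known for their rich vascular network.

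The endothelial markers PECAM1, CDH5, VWF, CLDN5 and TIE1 had counts in all 29 samples, as did the lymphatic markers PROX1, LYVE1 and FLT4. Of the other lymphatic genes, podoplanin (PDPN) and MMRN1 were each at 0 counts in 1 sample of group 1 and CCBE1 in 5. Compared per kilobase of exon, as TMM-normalized RPKM, the highest member in NAMs was ECE1, the enzyme that converts endothelin precursors to active peptides, with a median of 188 RPKM. It was followed by PLVAP, the protein of the diaphragms of fenestrated endothelium, with 109 RPKM, and by VEGFA with 59.7 RPKM after VEGFB. In PPGLs the order was PLVAP with 155.5 RPKM, ECE1 with 115 RPKM and VEGFA with 85.5 RPKM. At the low end, ESM1 moved from rank 39 of 40 in NAMs to rank 17 in PPGLs, and MMRN1 from rank 26 to rank 40. Differences between neighbors in these orders were not tested, and lengths are those of the annotation, which lists only 552 bases of exon for ERG.

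Which vascular genes differed between tumor and normal medulla was examined by edgeR's quasi-likelihood F test, fitted on all 14766 genes that passed the filter, with the FDR-adjusted p taken over all of them and a gene called below 0.05. Of the 40 members, 22 were called, against 37.5% of all genes tested. Higher in PPGLs were 8 members, against 22.3% of all genes, and lower were 14, against 15.2%. The median log2 FC of the members was -0.27 and that of all genes tested 0.13. Past the study's further limit of a log2 FC over 3 or under -3 were 5 members, against 2.86% of all genes. These were CCBE1, ESM1, ANGPTL7, EDN2 and MMRN1, all 5 of which the study had itself listed as differentially expressed in these same samples. As the members were chosen with such results known, their counts describe the list and do not test it against all genes. In bulk tissue, fewer cells of a type and less RNA per cell cannot be told apart. The 8 higher members were PGF, ANGPT2, ANGPTL7, EDN2, EDNRB, DLL4, ESM1 and PROX1, while the lower ones included KDR, FLT4, TEK and TIE1 and 3 of the 5 lymphatic genes.

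**Figure D1:**
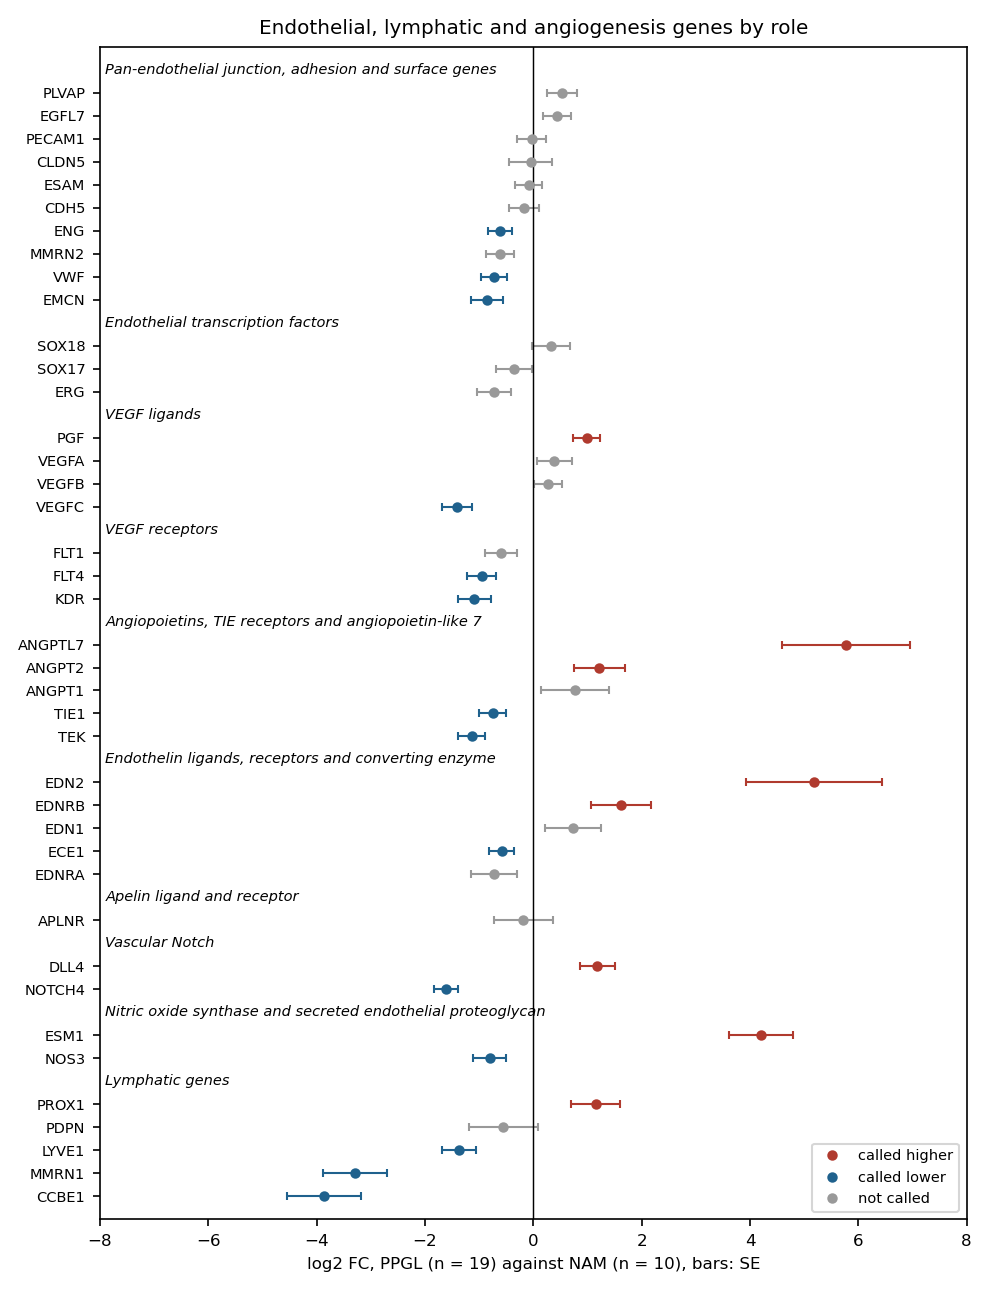
Each point is the log2 FC of a member in 19 PPGLs against 10 NAMs and each bar its SE, with members grouped by role and colored by the call at an FDR-adjusted p below 0.05. The 8 genes called higher and the 14 called lower lie on the 2 sides of 0, and several general endothelial genes, such as PECAM1 and ESAM, lie close to it.

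Among the 10 junction, adhesion and surface genes shared by most endothelial cells, 3 were lower in PPGLs and 7 were not called, with a median log2 FC of -0.13. PECAM1, which joins endothelial cells to each other and to leukocytes, was at 93.8 to 261 CPM in NAMs (median 150), 35.9 to 331 CPM in group 1 (median 144) and 73.5 to 362 CPM in group 2 (median 123). The 3 ranges overlapped almost entirely, the lowest sample being sample 6 of group 1 and the highest sample 11 of group 2. Its log2 FC of -0.03 (SE 0.27, FDR-adjusted p = 0.937) became 0.02 with library size in place of TMM. VE-cadherin (CDH5), the adherens junction protein of endothelium, had a log2 FC of -0.17 (SE 0.27, FDR-adjusted p = 0.650). The 3 called genes were endomucin (EMCN), endoglin (ENG), a co-receptor for TGF-beta ligands, and von Willebrand factor (VWF), the clotting protein stored in endothelial granules, with log2 FCs of -0.85, -0.61 and -0.73 in that order. Both EMCN and ENG were below every NAM in 13 of 19 PPGLs. The call of EMCN was lost without NAM sample 7 (log2 FC -0.73, FDR-adjusted p = 0.0592) and that of ENG without NAM sample 4, 7, 9 or 10 (log2 FC -0.55 to -0.58), and with library size in place of TMM neither was called (EMCN -0.76, FDR-adjusted p = 0.0518, and ENG -0.54, FDR-adjusted p = 0.0648). CLDN5, ESAM, MMRN2, EGFL7 and PLVAP were not called, although MMRN2 was called lower without any 1 of 7 samples, namely NAM samples 2, 3 and 5, group 1 samples 4 and 5, and group 2 samples 9 and 11, with log2 FCs of -0.65 to -0.70. By DESeq2's Wald test MMRN2 was called lower with all samples (log2 FC -0.63, FDR-adjusted p = 0.0440). Without group 1 samples 6 and 7, edgeR's test called PLVAP (log2 FC 0.65, FDR-adjusted p = 0.0327) and EGFL7 (0.54, FDR-adjusted p = 0.0395) higher.

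The transcription factors ERG, SOX17 and SOX18, which set endothelial identity, were not called. ERG had a log2 FC of -0.72 (SE 0.31, FDR-adjusted p = 0.0684), and it was called lower without NAM sample 3 (log2 FC -0.82) or group 2 sample 9 (-0.83) or 11 (-0.88). Its median was 2.96 CPM in NAMs, 1.14 CPM in group 1 and 1.62 CPM in group 2.

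Of the 4 VEGF ligands, VEGFC was lower in PPGLs, PGF was higher and 2 were not called. VEGFC, the growth factor of lymphatic vessels, was at 43.2 to 143 CPM in NAMs (median 77.6), 5.76 to 71.3 CPM in group 1 (median 23.8) and 13.8 to 64.7 CPM in group 2 (median 25.9). In 14 of 19 PPGLs it lay below every NAM, and the 5 tumors within the NAM range were samples 5 and 6 of group 1 and 9, 10 and 11 of group 2. The decrease (log2 FC -1.41, SE 0.28, FDR-adjusted p = 0.000250) was among the larger ones of the module. Placental growth factor (PGF), a ligand of FLT1, had medians of 33.4 CPM in NAMs and 71.8 CPM in PPGLs, with 8 of 19 PPGLs higher than the highest NAM (PGF log2 FC 0.99, SE 0.25, FDR-adjusted p = 0.00315). VEGFA, the main driver of vessel sprouting, and VEGFB were not called. VEGFA was at 107 to 626 CPM in NAMs (median 216) and 37.1 to 649 CPM in PPGLs (median 309), with NAM sample 3 and group 1 sample 6 at the upper ends, so that the tissues overlapped over nearly the whole range (log2 FC 0.39, SE 0.32, FDR-adjusted p = 0.358).

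Of the 3 VEGF receptors, KDR and FLT4 were lower in PPGLs and FLT1 was not called. KDR (VEGFR2), the main signaling receptor for VEGFA, was at 50.7 to 306 CPM in NAMs (median 127.5), 14.7 to 230.5 CPM in group 1 (median 71.9) and 27.9 to 147 CPM in group 2 (median 45.0). The ranges overlapped widely, NAM sample 3 was lower than any other NAM, and 9 of 19 PPGLs lay below it. KDR fell by 1.09 on the log2 scale (SE 0.30, FDR-adjusted p = 0.00579). FLT4 (VEGFR3), the receptor for VEGFC, had a log2 FC of -0.95 (SE 0.27, FDR-adjusted p = 0.00580), with 11 of 19 PPGLs below every NAM. FLT1, which binds VEGFA and PGF, had a log2 FC of -0.60 (SE 0.30, FDR-adjusted p = 0.115), and it was called lower without group 1 sample 5 (log2 FC -0.77) or group 2 sample 9 (-0.74).

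TEK (TIE2), the receptor of the angiopoietins, was at 75.5 to 188 CPM in NAMs (median 122), 14.4 to 81.9 CPM in group 1 (median 35.0) and 29.7 to 123 CPM in group 2 (median 74.1). It lay below every NAM in 6 of 7 tumors of group 1 and in 7 of 12 of group 2, and the exception in group 1 was sample 6. TEK fell by 1.14 on the log2 scale (SE 0.25, FDR-adjusted p = 0.000865). TIE1, its partner receptor without a known main ligand of its own, had a log2 FC of -0.75 (SE 0.25, FDR-adjusted p = 0.0178), a call lost without NAM sample 10 (log2 FC -0.61, FDR-adjusted p = 0.0565).

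The ligand ANGPT2, which loosens vessels by competing with ANGPT1 at TEK, was at 7.34 to 11.8 CPM in NAMs (median 9.03), 3.36 to 120 CPM in group 1 (median 25.2) and 4.15 to 21.5 CPM in group 2 (median 8.87). Samples 2 and 6 of group 1 were far above all others, 10 of 19 PPGLs exceeded the highest NAM and 6 fell short of the lowest. The difference between tissues (log2 FC 1.22, SE 0.47, FDR-adjusted p = 0.0417) was lost without any 1 of 12 samples, namely each NAM other than sample 7 and samples 2, 5 and 6 of group 1, with log2 FCs of 0.79 to 1.25. ANGPT1, the stabilizing ligand, was at 0.420 to 4.59 CPM in NAMs (median 3.42), 0.407 to 2.72 CPM in group 1 (median 0.843) and 1.09 to 41.1 CPM in group 2 (median 2.64), and it was not called between tissues (log2 FC 0.77, SE 0.63, FDR-adjusted p = 0.349). The highest values were those of group 2 samples 5, 2 and 11, and the NAMs lay inside the range of the PPGLs. Without sample 5 of group 2 the log2 FC of ANGPT1 was 0.06 (FDR-adjusted p = 0.941).

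ANGPTL7, a secreted protein related to the angiopoietins that does not bind TEK, had the largest log2 FC of the module. It was at 0.0510 to 2.33 CPM in NAMs (median 0.705), 0 to 316 CPM in group 1 (median 5.99) and 1.87 to 220 CPM in group 2 (median 11.1). It exceeded the highest NAM in 14 of 19 PPGLs, and the lowest tumors were samples 4 and 7 of group 1. The log2 FC of 5.77 had a wide error (SE 1.18, FDR-adjusted p = 0.000397), and the lowest NAM and these 2 tumors were all under the floor of 3 counts.

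Endothelins act on vessel tone through the receptors EDNRA and EDNRB. EDN2 was close to the floor in NAMs, with at most 6 counts and 0 counts in 4 of 10 samples. Its level was 0 to 0.237 CPM in NAMs (median 0.146), 0 to 14.4 CPM in group 1 (median 0) and 0.210 to 25.5 CPM in group 2 (median 0.898). In group 1 it was at 0 counts in 4 of 7 samples and highest in sample 6, while 10 of 12 tumors of group 2 lay above every NAM. EDN2 was called higher, with a wide error (log2 FC 5.18, SE 1.25, FDR-adjusted p = 0.00186).

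EDNRB, which also clears endothelin from the circulation, was at 30.2 to 64.2 CPM in NAMs (median 40.8), 12.1 to 229 CPM in group 1 (median 28.8) and 18.3 to 581 CPM in group 2 (median 104). The tumors lay on both sides of the NAMs, with 9 above and 6 below every NAM, and samples 12 and 1 of group 2 were the highest. EDNRB was called higher (log2 FC 1.62, SE 0.55, FDR-adjusted p = 0.0210), but the rank-based Mann-Whitney U-test did not call it, nor did it call ANGPT2 or PROX1. EDNRB was also not called in the fit of 3 groups (log2 FC 1.21, FDR-adjusted p = 0.0517) or with the sample number as a block (log2 FC 0.85, FDR-adjusted p = 0.278). The sample numbers were not taken to pair animals, so the block removes no known source of variation. By the U-test, PDPN (FDR-adjusted p = 0.0187), EDNRA (0.0151) and ERG (0.0282) were called lower. Among the remaining endothelin genes, ECE1 had a log2 FC of -0.59 (SE 0.23, FDR-adjusted p = 0.0477), a call lost without any 1 of 18 samples (NAM samples 1, 2 and 5 to 9, group 1 samples 1, 3 and 5, and group 2 samples 1, 2, 3, 5, 7, 8, 9 and 12), with log2 FCs of -0.67 to -0.52 over all samples left out. EDN1, the endothelin of vascular endothelium, was not called (log2 FC 0.74, SE 0.52, FDR-adjusted p = 0.274). EDNRA, singled out after its values were seen, was lower than the lowest NAM in 15 of 19 PPGLs and exceeded the highest NAM in 3 (samples 1 and 6 of group 1 and 11 of group 2), and was not called (log2 FC -0.72, SE 0.42, FDR-adjusted p = 0.187). EDNRA was called lower without sample 1 of group 1 (log2 FC -1.11, FDR-adjusted p = 0.0132).

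Of the apelin pair, which acts on vessel tone and sprouting, the receptor APLNR was the gene measured, with a log2 FC of -0.18 (SE 0.54, FDR-adjusted p = 0.819). It had 0 counts in 1 sample of group 2 and medians of 3.58 CPM in NAMs and 3.46 CPM in PPGLs.

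The 2 members of vascular Notch signaling, DLL4 and NOTCH4, changed in opposite directions. DLL4, the Notch ligand of tip cells and arteries, was at 6.53 to 20.5 CPM in NAMs (median 11.75), 2.62 to 68.0 CPM in group 1 (median 30.8) and 12.8 to 58.7 CPM in group 2 (median 26.9). It exceeded the highest NAM in 13 of 19 PPGLs, and sample 6 of group 1 was lower than the lowest NAM. DLL4 rose by a log2 FC of 1.18 (SE 0.32, FDR-adjusted p = 0.00457). NOTCH4, an endothelial Notch receptor, was at 32.1 to 87.8 CPM in NAMs (median 52.2), 4.60 to 32.7 CPM in group 1 (median 20.8) and 9.30 to 34.2 CPM in group 2 (median 14.5). The groups met only at their edges, since 17 of 19 PPGLs lay below every NAM and the 2 others, sample 5 of group 1 and sample 9 of group 2, lay just above the lowest NAM. NOTCH4 fell by 1.62 on the log2 scale (SE 0.22, FDR-adjusted p = 3.33e-06). NOTCH4 lies on chromosome 12 from 1587918 to 1607760 of CanFam3.1, and DLL4 on chromosome 30 from 8059512 to 8067940.

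ESM1 encodes endocan, a proteoglycan that tip cells secrete. On chromosome 4 from 60592609 to 60624155, it was at 0.344 to 6.07 CPM in NAMs (median 1.12), 7.33 to 107 CPM in group 1 (median 55.7) and 8.36 to 82.5 CPM in group 2 (median 21.2). No PPGL reached down into the NAM range, and sample 6 of group 1, which also had the lowest PECAM1, was the tumor nearest to it. ESM1 was the 1 member above every NAM in all 19 PPGLs, a pattern of 0.217% of all genes tested (log2 FC 4.21, SE 0.59, FDR-adjusted p = 4.64e-06). Nitric oxide synthase 3 (NOS3), which makes the vessel-relaxing nitric oxide, went the other way (log2 FC -0.80, SE 0.30, FDR-adjusted p = 0.0352), and its call was lost without NAM sample 4, 6, 7, 9 or 10 (log2 FC -0.65 to -0.80) and with library size in place of TMM (log2 FC -0.75, FDR-adjusted p = 0.0532).

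**Figure D2:**
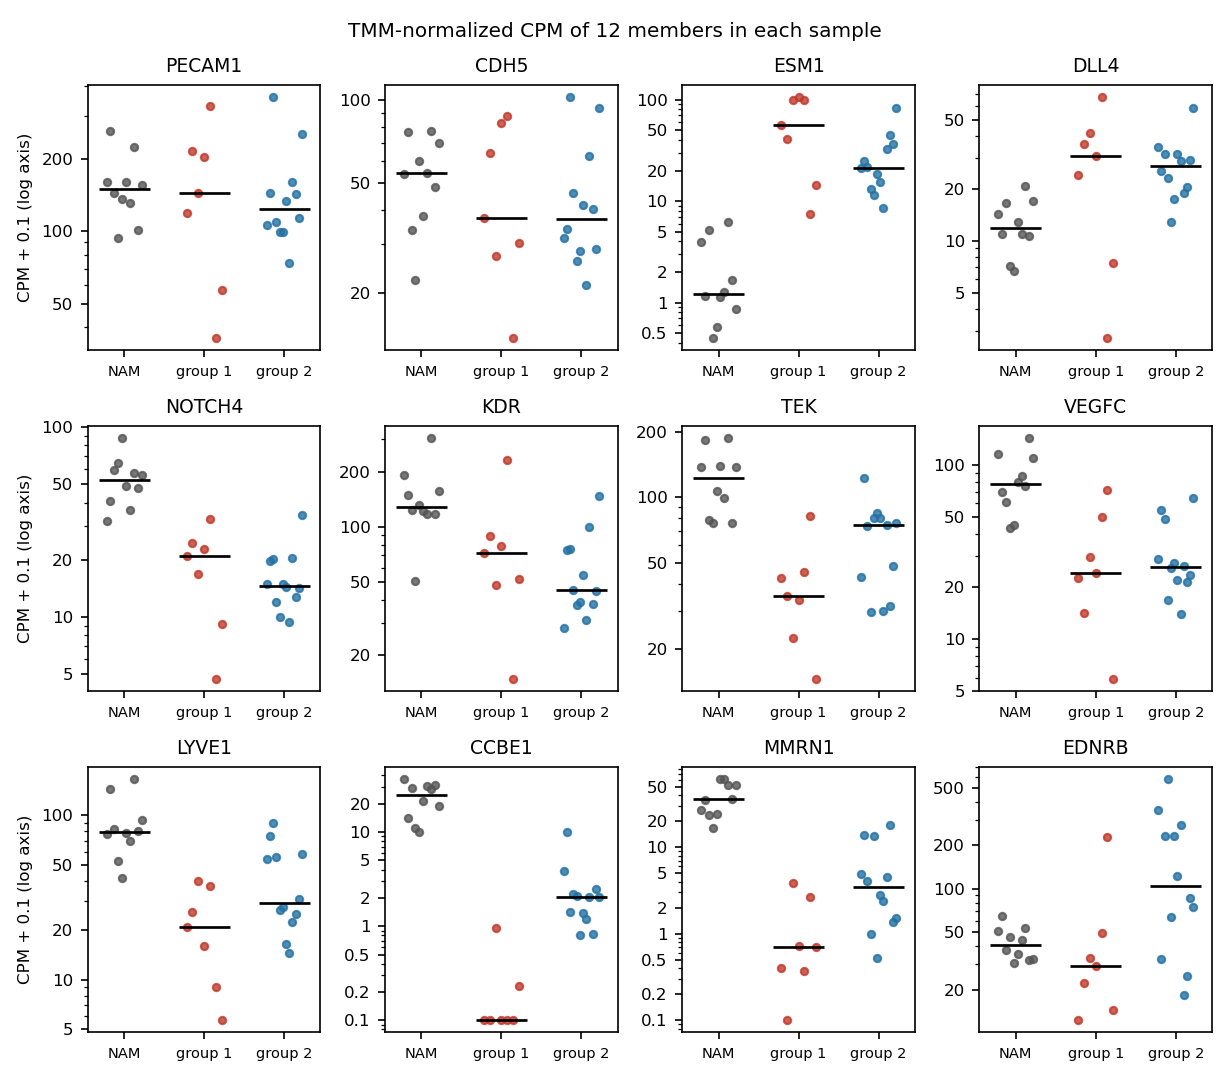
Each point is the TMM-normalized CPM of 1 sample (with 0.1 added, on a log axis) for 12 members, with the NAMs on the left and the 2 tumor groups beside them, and each line is the group median. PECAM1 and CDH5 overlap between groups, ESM1 lies higher in all 19 PPGLs than in every NAM, and CCBE1 lies lower in all 19.

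Among the 5 lymphatic genes, 3 were lower, 1 was higher and 1 was not called, with a median log2 FC of -1.37. CCBE1, a secreted protein needed to process VEGFC, lies on chromosome 1 from 16597334 to 16819894. It was at 9.99 to 36.9 CPM in NAMs (median 24.9), 0 to 0.853 CPM in group 1 (median 0) and 0.711 to 9.87 CPM in group 2 (median 1.95). All 19 PPGLs lay below every NAM, a pattern of 0.481% of all genes tested, and 5 of 7 tumors of group 1 had 0 counts. Sample 10 of group 2 came closest to the NAMs. CCBE1 fell by 3.87 on the log2 scale ( SE 0.68, FDR-adjusted p = 7.99e-05).

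Multimerin 1 (MMRN1), a glycoprotein of lymphatic endothelium and platelets, was at 16.3 to 61.7 CPM in NAMs (median 35.4), 0 to 3.74 CPM in group 1 (median 0.600) and 0.427 to 18.0 CPM in group 2 (median 3.34). Sample 7 of group 2 was the 1 tumor within the NAM range (MMRN1 log2 FC -3.29, SE 0.59, FDR-adjusted p = 9.47e-05). LYVE1, the hyaluronan receptor of lymphatic endothelium and some macrophages, was at 41.6 to 167 CPM in NAMs (median 79.1), 5.56 to 39.9 CPM in group 1 (median 20.7) and 14.4 to 89.2 CPM in group 2 (median 29.2). All 7 tumors of group 1 and 7 of 12 of group 2 lay below every NAM, whereas group 2 samples 1, 9, 10, 11 and 12 lay within the NAM range (log2 FC -1.37, SE 0.32, FDR-adjusted p = 0.00121).

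PROX1, the transcription factor that sets lymphatic identity and is also active in other cell types, was the lymphatic gene called higher. It was at 37.0 to 134 CPM in NAMs (median 53.9), 7.01 to 506 CPM in group 1 (median 82.7) and 34.6 to 268 CPM in group 2 (median 115.5). The tumors ran from below to above the NAMs, with 9 above and 4 below every NAM and sample 1 of group 1 the highest. Its log2 FC of 1.15 (SE 0.45, FDR-adjusted p = 0.0441) was no longer called without any 1 of 17 samples, namely each NAM other than sample 4, group 1 samples 1 and 7, and group 2 samples 1, 3, 4, 5, 6 and 8, with log2 FCs of 0.92 to 1.34 over all samples left out. PDPN, a surface glycoprotein of lymphatic endothelium and some fibroblasts, was singled out after its values were seen, with 2 of 19 PPGLs above and 10 below the range of the NAMs (PDPN log2 FC -0.55, SE 0.63, FDR-adjusted p = 0.519). Its highest value, 71.4 CPM, was that of sample 11 of group 2, and without this sample PDPN was called lower (log2 FC -1.28, FDR-adjusted p = 0.0481). With all samples it was called lower by DESeq2's Wald test (log2 FC -1.27, FDR-adjusted p = 0.0257) and by the Mann-Whitney U-test.

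To set members against genes that most endothelial cells share, the log2 ratio of each to a pan-endothelial reference was taken, the mean log2 CPM of PECAM1, CDH5, TIE1, ERG and ESAM. Of these, TIE1 was itself called lower in PPGLs (log2 FC -0.75) and ERG was at -0.72, while PECAM1, CDH5 and ESAM were at -0.03, -0.17 and -0.09. The reference is therefore not a pure measure of endothelial content, and where it is lower, the ratio of every other gene is raised. The reference itself was 4.14 to 5.57 in NAMs (median 4.93), 2.87 to 5.43 in group 1 (median 4.30) and 3.62 to 5.68 in group 2 (median 4.25). Sample 6 of group 1 had the lowest and sample 9 of group 2 the highest reference of all samples. These ratios describe the samples and were not tested. The share of all genes lying above or below every NAM was not computed for the ratios, so the counts below have no background beside them.

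Relative to the reference, ESM1 was higher in all 19 PPGLs than in every NAM, with a difference of medians of 4.79 on the log2 scale. DLL4 was above every NAM in 15 of 19 PPGLs (difference 1.38) and PGF in 12 (difference 1.42). PLVAP, which was not called in the test of levels and is named after its values were seen, was above every NAM in 16 of 19 PPGLs relative to the reference (difference 0.75). By level it was above every NAM in 3, and the median of the reference was 4.26 in PPGLs against 4.93 in NAMs. On the other side, CCBE1 was below every NAM in 18 of 19 PPGLs, MMRN1 in 17, NOTCH4 in 17, KDR in 15, VEGFC in 14 and FLT4 in 13. TEK was below every NAM in 15 of 19 PPGLs and above every NAM in the other 4, so that no tumor lay within the NAM range. The differences of medians were -1.13 for NOTCH4, -0.77 for KDR, -0.73 for TEK, -1.14 for VEGFC and -0.83 for FLT4. Sample 6 of group 1, low in the reference, nevertheless had the highest TEK, VEGFC, EDNRB and EDN2 of its group.

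PPGL group 1 was then compared with group 2 by the same test in the 19 PPGLs, with 14666 genes tested and a call below an FDR-adjusted p of 0.1. As the groups were drawn from these same samples, the p-values describe the split. Of the 40 members, 3 were called, against 6.92% of all genes tested, 1 of them higher in group 1, against 3.97%, and 2 lower, against 2.95%. The median log2 FC was 0.09 for the members and 0.04 for all genes. The pair of angiopoietins differed in opposite directions, and CCBE1 differed further between the groups.

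ANGPT2, on chromosome 16 from 58405259 to 58457701, was above every group 2 tumor in 4 of 7 tumors of group 1 and below every group 2 tumor in sample 7 of group 1 (log2 FC 1.96, SE 0.48, FDR-adjusted p = 0.0322). Without sample 2 of group 1 the log2 FC was 1.37 and the call was lost (FDR-adjusted p = 0.102). The Mann-Whitney U-test did not call ANGPT2 between the groups (FDR-adjusted p = 0.233). ANGPT1, on chromosome 13 from 8048205 to 8311618, was below every group 2 tumor in 5 of 7 tumors of group 1 (log2 FC -2.78, SE 0.78, FDR-adjusted p = 0.0539). Without sample 7 of group 1 its log2 FC was -2.66 and the call was lost (FDR-adjusted p = 0.113), and without sample 5 of group 2, the highest tumor, it was -2.003 and still called (FDR-adjusted p = 0.0711). The ratio of ANGPT2 to ANGPT1 per exon length, computed after these values were seen, was 1.96 to 18.5 in NAMs (median 2.98), 6.71 to 181 in group 1 (median 23.4) and 0.357 to 8.50 in group 2 (median 2.89). It was over 10 in 6 of 7 tumors of group 1, in no tumor of group 2 and in 1 NAM, in which ANGPT1 was the lowest of the NAMs.

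**Figure D3:**
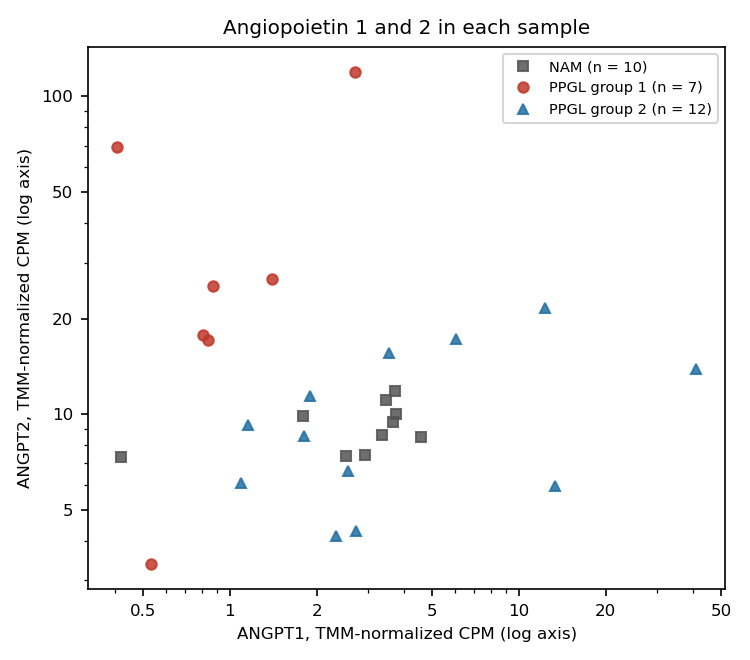
Each point is 1 sample, with the TMM-normalized CPM of ANGPT1 on the horizontal and of ANGPT2 on the vertical log axis, colored by group. Of the 7 tumors of group 1, 6 lie toward the upper left, with a ratio over 10 per exon length, and the 12 tumors of group 2 lie below that ratio.

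CCBE1 was below every group 2 tumor in 6 of 7 tumors of group 1 (log2 FC -4.09, SE 0.99, FDR-adjusted p = 0.0301), and without sample 3 of group 1, the highest of its group, the log2 FC was -6.30 (FDR-adjusted p = 0.00587). Without group 1 samples 6 and 7 together, the log2 FC of CCBE1 was -3.82 and the call was lost (FDR-adjusted p = 0.109). MMRN1 (log2 FC -2.28, SE 0.87, FDR-adjusted p = 0.150), PDPN (-2.08, SE 0.92, FDR-adjusted p = 0.222) and LYVE1 (-0.90, SE 0.42, FDR-adjusted p = 0.242) were not called in edgeR's test of the PPGLs alone. ESM1 was not called either (log2 FC 1.14, SE 0.47, FDR-adjusted p = 0.190), although it was called higher in group 1 without sample 6 of group 1 (log2 FC 1.34) or sample 9 of group 2 (1.43). EDNRB (log2 FC -1.64, SE 0.72, FDR-adjusted p = 0.217) and TEK (-0.70, SE 0.33, FDR-adjusted p = 0.250) were called lower in group 1 without sample 6 of group 1 (log2 FC -2.70 and -0.99), and MMRN1 without sample 3 of group 1 (-2.94). The 37 members not called in this test had log2 FCs of -2.28 to 1.14. With all samples, DESeq2's Wald test and the fit of 3 groups called MMRN1 lower in group 1 (FDR-adjusted p = 0.0346 and 0.0372). Both also called PDPN (FDR-adjusted p = 0.0812 and 0.0847) and EDNRB (0.0842 and 0.0773) lower.

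Markers of the adrenal cortex moved with both comparisons. Of 10 cortical markers tested, 9 were lower in PPGLs, against 15.2% of all genes, and 9 lower in group 1 than in group 2, against 2.95%. Their summed level was 14127 to 69102 CPM in NAMs, 92.1 to 1165 CPM in group 1 and 255 to 34319 CPM in group 2, with CYP17A1, a steroid hydroxylase, the most abundant. Sample 10 of group 2, the tumor with the highest cortical sum, was also the tumor with the highest CCBE1 and TEK, whereas sample 7 of group 2, with the highest MMRN1 of the tumors, had the lowest cortical sum of its group.

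With the mean log2 CPM of these markers as a covariate, 7 of the 22 members remained called between PPGLs and NAMs in the same direction, in a fit that called 2182 of 14766 genes in place of 5541. ESM1 (log2 FC 3.11), ANGPTL7 (5.47), EDN2 (7.14) and EDNRB (3.18) remained higher, and NOTCH4 (-1.88), KDR (-1.60) and VWF (-1.23) remained lower. CCBE1 and MMRN1 were at -1.79 and -2.20 and no longer called, VEGFC was at -1.16, TEK at -0.46, LYVE1 at -0.79 and DLL4 at 1.00, none of them called. Also no longer called were EMCN (-0.69), FLT4 (-0.62), ECE1 (-0.28), PGF (0.55) and PROX1 (0.81), and, with values at least as large as before, ENG (-0.81), TIE1 (-0.91) and NOS3 (-0.83). ANGPT2 turned to -0.36 and ANGPT1 was called higher at 2.55. Over 10 alternatives the FDR-adjusted p of NOTCH4 was at most 0.00126, that of ESM1 at most 0.00171 and that of CCBE1 at most 0.0720. The summed cortical level was itself lower than in every NAM in 18 of 19 PPGLs, so that tissue and score overlap in this fit. Between the groups, 0 of 14666 genes were called by edgeR's test with the covariate, members included, while 3 members had an unadjusted p below 0.05, and no other tool was run with it. The log2 FC was then -3.28 for ANGPT1, 2.18 for ANGPT2 and -1.58 for CCBE1.

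For the counts of markers between PPGLs and NAMs, 22.3% of all genes tested were called higher and 15.2% lower. Among markers of other cell types, 6 of 8 fibroblast markers and 5 of 12 of pericytes and smooth muscle were higher in PPGLs and none lower. Summed fibroblast markers ran from 267 to 661 CPM in the NAMs and from 157 to 25430 CPM in the PPGLs, with COL1A2 the most abundant, and the highest sample was sample 11 of group 2, which also had the highest PECAM1, CDH5 and PDPN. Those of pericytes ran from 441 to 1705 CPM in the NAMs and from 367 to 5458 CPM in the PPGLs, with RGS5 the most abundant. Between the groups, where 2.95% of all genes tested were lower in group 1, 2 of the 12 pericyte and smooth muscle markers were called lower by edgeR's test. These were DES (log2 FC -2.81, FDR-adjusted p = 0.00881) and CNN1 (-2.95, FDR-adjusted p = 0.0485), both of smooth muscle. The 8 fibroblast markers had a median log2 FC of -2.05, with 0 called by edgeR's test and 6 at an unadjusted p below 0.05. Of the leukocyte markers, 3 of 9 were higher and 1 lower, the most abundant was CD79A, and the B cell marker MS4A1 had a median count of 0. Chromaffin markers, led by CHGB, were higher in 3 and lower in 1 of 11, and their sum was lowest in sample 7 of group 1, at 8181 CPM, which was also the lowest tumor in VEGFA, VEGFC, ANGPT2, TEK, EDNRA, ECE1 and LYVE1. The remaining lists were small, with none of 5 Schwann and sustentacular markers (most abundant CDH19) called, 1 of 2 hepatocyte and kidney markers lower (most abundant APOA1, with TTR, FGA, FGB and UMOD at a median count of 0) and 3 of 3 erythroid markers higher (most abundant ALAS2, with EPB42 at a median count of 0). Apart from the fit with the cortical score, their part in the results was not tested.

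Other genes of the same pathways were read from lists of their own. For their counts between PPGLs and NAMs, 22.3% of all genes tested were called higher and 15.2% lower. Of 10 other VEGF, angiopoietin, endothelin and apelin pathway genes tested, 2 were higher and 2 lower. The higher ones were ANGPTL2, an angiopoietin-like protein (log2 FC 2.02, SE 0.31, above every NAM in 17 of 19 PPGLs), and NRP2, a co-receptor for VEGFC (log2 FC 1.76, SE 0.38, above every NAM in 13). ANGPT4, a further TEK ligand, was lower (log2 FC -2.02, SE 0.43), as was the endothelin EDN3 (log2 FC -1.61, SE 0.42). Of 29 other endothelial genes, 7 were higher and 2 lower, with a median log2 FC of 0.31, and the largest were SELE, an adhesion molecule of activated endothelium (3.18, SE 1.21, above every NAM in 5 PPGLs, with a median of 1.32 CPM in PPGLs against 2.08 CPM in NAMs), the transcription factor GATA2 (2.24, SE 0.32) and the caveolar protein CAV1 (2.10, SE 0.36). Further Notch genes of the lists, named after their values were seen, were the receptor NOTCH3 among the pericyte markers (1.64), the ligand JAG2 (0.92) and the target gene HEY1 (0.82), which were higher, and NOTCH1 and JAG1, which were not called. RAMP3, a partner of the adrenomedullin receptor (-1.16, SE 0.36), and the TGF-beta family receptor ACVRL1 (-0.67, SE 0.27) were the 2 lower ones. Of 8 other lymphatic genes, 2 were lower, the scavenger receptor STAB1 (-1.32, SE 0.20) and the transcription factor NR2F2 (-1.10, SE 0.26), and 6 were not called. Between the groups, 2.95% of all genes tested were called lower in group 1 and 3.97% higher. Of these lists, 1 of 10 pathway genes, 2 of 29 endothelial genes and 2 of 6 lymphatic genes tested were called, all lower in group 1. They were the angiopoietin-like ANGPTL1 (log2 FC -2.26), the selectins SELE (-4.85) and SELP (-2.40), the semaphorin SEMA3A (-4.04) and the integrin ITGA9 (-1.12).

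The libraries were made with a kit that keeps the strand, but the strand setting of the counting is not given in the sources used here, and 11 of the 40 members lie within or across the span of another gene. On the other strand, ANGPT2 lies across MCPH1, ANGPTL7 across MTOR and LYVE1 across AMPD3. AMPD3 had 171118 counts in all samples against 36784 of LYVE1. MTOR had 105447 counts in all samples, while ANGPTL7 had a median of 0.705 CPM in NAMs and 0 counts in 1 tumor. Whether reads of these partners were counted for the members, which could occur if strand was not used, was not tested. PLVAP overlaps 3 genes on its own strand, and EGFL7 and NOS3 overlap 1 each, which strand would not resolve.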

How the data were processed

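The unit is the count of exon reads per Ensembl gene, deposited by the authors as 1 raw table of 29 samples after alignment of 50 bp single-end reads to CanFam3.1 with STAR. The tools in the submitters' processing notes were FastQC, STAR, Picard and HTSeq, while the sample descriptions name featureCounts, and the handling of multi-mapping reads is not stated. The 2 tumors the authors left out were not analysed here. Counts were filtered with edgeR's filterByExpr (minimum count 10, minimum total 15), scaled by TMM and tested with the quasi-likelihood F test and the Benjamini-Hochberg correction over all genes tested. Levels are TMM-normalized CPM, and log2 CPM used a prior count of 2. Members called between PPGLs and NAMs with a log2 FC of at least 1 in size, or called between the groups, are given in full, the others more briefly, and from the lists of other genes up to 3 called genes per direction with the largest log2 FC between PPGLs and NAMs. Genes of these lists called between the groups were added after the values were seen. A gene of the lists is not reported here. The members and lists were chosen with earlier results of these data known. Alternatives were other scalings, filters and tests, a replicate block, the cortical score, 3 groups in the fit and samples left out. Software was edgeR 4.0.16 and DESeq2 1.42.0 in R 4.3.3, with figures from matplotlib 3.10.9 in Python 3.11.15.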

Additional observations from a re-analysis of the deposited data

Results flagged for a closer look

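In 80 groups of values, namely the 40 members in the 10 NAMs and in the 7 tumors of group 1, a single sample stood far from the others of its group 5 times, and chance alone does so in about 1 group in 20. Sample 6 of group 1 was low in EGFL7 (11.6 CPM) and in TIE1 (5.29 CPM), NAM sample 3 was low in KDR (50.7 CPM) and in ANGPT1 (0.420 CPM), and sample 3 of group 1 was high in CCBE1 (0.853 CPM) against a median of 0 in its group. Group 2 has 12 samples and was not examined in this way.

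A difference between the PPGL groups by edgeR's test was seen for ANGPT1 (log2 FC -2.78), ANGPT2 (log2 FC 1.96) and CCBE1 (log2 FC -4.09).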

How the results depend on the processing

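Between PPGLs and NAMs, 8 members were higher and 14 lower. The number higher was 5 with the Mann-Whitney U-test and 5 with the sample number as a replicate block. Both lost ANGPT2, EDNRB and PROX1 (with the block, log2 FC 0.73, 0.85 and 0.91). It was also 5 when the cortical score was a covariate, a fit that left 3 lower. The Mann-Whitney U-test and the replicate block gave 17 lower, both adding PDPN, EDNRA and ERG (with the block, log2 FC -1.55, -1.31 and -0.88), and DESeq2's Wald test gave 17, adding MMRN2, PDPN and ERG. Library size only gave 11 lower, without EMCN, ENG and NOS3. With no low-count filter 6 were higher, without ANGPT2 and PROX1, and 13 lower, without ECE1. The fit of 3 groups lost EDNRB and ECE1 and added ERG. With each sample left out in turn the counts were 6 to 8 higher and 10 to 17 lower. Between the groups, 1 member was higher and 2 lower. With the Mann-Whitney U-test 0 were higher, while 6 members had an unadjusted p below 0.05, and with the replicate block and the cortical score 0 were higher and 0 lower, although 3 members had an unadjusted p below 0.05 in edgeR's test under either. Of 14666 genes, these fits called 47 and 0. With the block, CCBE1 was at -5.09, ANGPT1 at -2.07 and ANGPT2 at 1.63. DESeq2's Wald test and the fit of 3 groups each gave 5 lower, adding PDPN, EDNRB and MMRN1. Each sample left out in turn gave 0 to 2 higher and 1 to 4 lower, and leaving out group 1 samples 6 and 7 together, chosen after seeing the data, gave 2 higher and 0 lower by edgeR's test, with 14 members at an unadjusted p below 0.05. The causes were not tested.

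Signs turned in 11 of 398 values of single genes between PPGLs and NAMs and, for 9 members, in 1 of 90 between the groups, leaving single samples out not included. For the tissues, PECAM1 was at 0.021 and CLDN5 at 0.019 with library size only, and without group 1 samples 6 and 7 PECAM1 was at 0.081, CLDN5 at 0.036 and ESAM at 0.015. With the cortical score CLDN5 was at 0.58, ANGPT2 at -0.36 and PDPN at 0.24. ANGPT1 was at -0.18 with the replicate block and -0.083 with 3 groups, and APLNR at 0.027 with the block. Between the groups, TEK was at 0.14 with the cortical score. Single samples left out also turned signs of members not called, such as ANGPTL7 (-1.53 without group 1 sample 2), EDNRA (-0.09 without group 1 sample 1) and PROX1 (-0.27 without group 1 sample 1) between the groups. The ratios of 21 called members to the reference kept their sign in all 147 values, with each reference gene left out, a prior count of 0.5 or library size only. Those of PLVAP and the other members not called were not run.

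The sample numbers were not taken to pair animals. Same-numbered samples of different groups had correlations of -0.23 to 0.24 in 24 pairs (median -0.01), with 2 over 0.1. EDN2 had no value between PPGLs and NAMs with at least 1 CPM as a filter or without group 1 samples 6 and 7. Depth limits EDN2, CCBE1, ANGPTL7, MMRN1, PDPN and APLNR, which were at 0 counts in some samples.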
